A study of Mus musculus with 6 samples.

Results

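The genes for subunits of the oxidative phosphorylation complexes were examined in E10 mouse eye tissue with and without *Rdh10*. They were taken by gene name: protein-coding genes whose names begin with Ndufa, Ndufb, Ndufc, Ndufs, Ndufv, Uqcr, Cox4i, Cox5, Cox6, Cox7, Cox8, Atp5 or mt-, together with *Sdha*, *Sdhb*, *Sdhc* and *Sdhd*, leaving out assembly factors named Ndufaf. This rule found 96 of the 26437 genes in the table, 83 encoded in the nucleus and 13 in mitochondrial DNA (mtDNA). By complex they number 45 for complex I, 4 for complex II, 9 for complex III, 19 for complex IV and 19 for complex V.

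Oxidative phosphorylation takes place in the inner mitochondrial membrane. Complexes I to IV pass electrons from NADH and succinate to oxygen, complexes I, III and IV pump protons, and complex V, the ATP synthase, uses the proton gradient to make ATP. Most subunits are encoded in the nucleus and imported, while a few core subunits of complexes I, III, IV and V are encoded in mtDNA, so the complexes need transcripts from both genomes. Some subunits have a second isoform that is used in particular tissues or at low oxygen.

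*Rdh10* encodes the enzyme that converts retinol to retinaldehyde, the first step of retinoic acid synthesis, and the study asked which genes change in the embryonic eye region when retinoic acid is not made. The mice were an outbred Black Swiss and C57BL/6 mix, the *Rdh10* KO (*Rdh10*-/-) embryos came from matings of heterozygous parents, and no treatment is named for either group. Each group had 3 libraries, and each library came from a pool of 3 embryos. The sample titles call the tissue eye and the source name calls it embryonic craniofacial, and by the study's methods the dissected frontal region held both optic vesicles with frontonasal tissue. In such bulk tissue, fewer cells of a type and less RNA per cell cannot be told apart.

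The tissue labels and the genotype were checked first. The normalized count of *Rdh10* itself was 399, 342 and 381 across wild-type replicates and 183, 142 and 181 across *Rdh10* KO replicates, so transcript of the targeted gene remained at a lower level. Markers of the optic vesicle summed to 4751 to 4952 normalized counts in wild-type and to 3150, 4909 and 4900 in *Rdh10* KO replicates 1, 2 and 3, and those of craniofacial mesenchyme to 13692 to 13824 and 11237 to 11329. Of 9 optic vesicle markers, *Vax2* and *Lhx2* were called lower (log2 fold changes -2.02 and -0.79) and *Six3* and *Rax* higher (0.48 and 0.64). In *Rdh10* KO replicates 2 and 3, *Six3* lay above its wild-type values and *Lhx2* below. In replicate 1, *Lhx2* was lowest and *Six3* lay within its wild-type range. The optic vesicle sum thus joins opposite changes and does not measure the amount of that tissue. Embryonic blood markers, mostly globins, summed to 100133 to 134520 in wild-type and to 50903, 119340 and 155919 in *Rdh10* KO. *Rdh10* KO replicate 1 thus stood apart with the lowest optic vesicle and blood sums. Without it, 59 of 93 subunit genes tested were called lower, where 9.11% of the 22708 genes tested were. Of the 59 called lower with all libraries, 58 were still called.

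Most oxidative phosphorylation subunit genes were lower in *Rdh10* KO tissue, each by a modest amount. Of the 94 members that could be tested, 59 were lower and 4 were higher (limma, Benjamini-Hochberg adjusted p under 0.05 over all genes tested), while 31 were not called. Over all 22921 genes tested, 9.12% were called lower and 10.3% higher. In 72 members all 3 *Rdh10* KO libraries lay below all 3 wild-type libraries, and in 4 members all lay above, against 17.0% and 17.6% of all genes tested. Among genes with more counts a larger share was called, and 88 members had a mean above 10 normalized counts. Fitted among the 15272 such genes, 63 members were called lower and 4 higher, where 15.6% and 16.6% of these genes were called.

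The size of the difference was small for most members and varied between them. The median log2 fold change was -0.30 over the 81 nuclear members with a mean above 10, a level 18.8% lower. It was -0.0019 over all 15272 genes with a mean above 10, which were not matched to the members in abundance. In the nuclear members called lower, the fall ranged from 14.7% for *Cox4i1* to 35.6% for *Uqcrq*. The lowest fold change of a called member was -0.67, so no called member was lower past the study's cut-off of 0.85 on the log2 scale, and 2 members, *Ndufa4l2* and *Cox4i2*, were higher past it. The median nuclear member was at -0.30, -0.27 and -0.33 from the wild-type mean (log2) in *Rdh10* KO replicates 1, 2 and 3 and at -0.04, 0.03 and 0.01 in the wild-type libraries, so that the 3 *Rdh10* KO libraries shifted alike. With the replicates taken as separate pools, the p-values measure the spread between these pools. The number of calls depended on the fit: 39 members were called lower without wild-type replicate 2, where 4.36% of all genes tested were, and 5 when limma was run without its intensity trend, where 0.859% were. With the trend, the spread expected for a gene depends on its level.

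**Figure D1:**
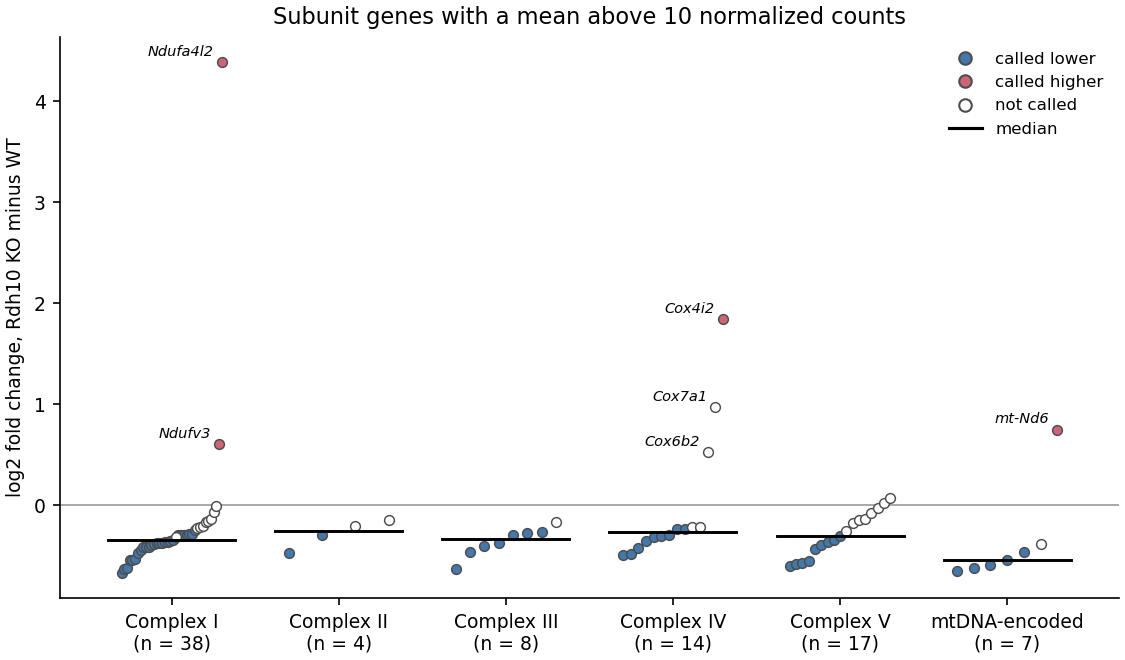
Log2 fold change (*Rdh10* KO minus wild-type, y axis) of each subunit gene with a mean above 10 normalized counts, grouped on the x axis by complex for nuclear genes and together for mtDNA-encoded genes. Blue points were called lower, red points higher and open points not called, and the black line is the group median. The medians lie between -0.25 and -0.55 in all 6 groups, and *Ndufa4l2* at 4.39 and *Cox4i2* at 1.84 stand far above the other points.

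Promoter sequences of the nuclear members were searched for short elements. NRF1, GABPA and YY1 are transcription factors known to bind promoters of nuclear respiratory genes. RefSeq promoters (GRCm38.p6, 250 bases before to 50 after each start) were matched for 69 of the 83 nuclear members and for 13442 protein-coding genes. Those not matched included *Atp5a1*, *Cox4i1*, *Cox4i2*, *Cox6a2*, *Cox6c*, *Ndufa2*, *Ndufa4l2*, *Ndufb9*, *Ndufs1*, *Sdhc*, *Uqcrb*, *Uqcrc2* and *Uqcrq*. On either strand, the NRF1 letters GCGCATGC were found in 10 members (14.5%) and in 4.99% of all these genes. The YY1 letters AAGATGGC were found in 11 members (15.9%) and in 4.26% of genes, and the GABPA letters CCGGAAG in 16 members (23.2%) and in 16.2% of genes. The hypoxia response core, ACGTG or GCGTG, counted together, was found in 45 members (65.2%) and in 62.1% of genes. Among protein-coding genes with a mean above 10, the shares were 5.8% for NRF1, 4.92% for YY1, 18.9% for GABPA and 67.4% for the hypoxia response core. Members had 1.087 promoters per gene, all these genes 1.265 and those with a mean above 10 had 1.284.

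The NRF1 letters occurred in members that were lower and in members that were not called: 7 of the 47 matched members called lower had them (14.9%), and 3 of the 21 not called (14.3%). The YY1 letters were in 17.0% and 14.3% of these groups, the GABPA letters in 29.8% (14 members) and 9.52% (2 members), and the hypoxia response core in 59.6% and 76.2%. These shares are given as a description, with no test. The 120 bases before the start of 5 members are shown to let these elements be compared, in the direction of transcription with the NRF1 letters or their reverse complement in capitals. Overlapping matches on both strands appear as 1 run of capitals.
*Atp5k*, lower, chr5:108434400-108434519, minus strand: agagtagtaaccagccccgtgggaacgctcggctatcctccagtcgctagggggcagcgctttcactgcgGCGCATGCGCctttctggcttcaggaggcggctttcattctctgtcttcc
*Ndufa11*, lower, chr17:56717642-56717761, plus strand: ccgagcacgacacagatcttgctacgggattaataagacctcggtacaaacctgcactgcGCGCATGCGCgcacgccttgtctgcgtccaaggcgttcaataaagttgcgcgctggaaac
*Sdhb*, lower, chr4:140961151-140961270, plus strand: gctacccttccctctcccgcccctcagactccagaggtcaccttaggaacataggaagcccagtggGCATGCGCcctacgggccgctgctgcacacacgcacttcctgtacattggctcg
*Atp5g2*, not called, chr15:102671048-102671167, minus strand: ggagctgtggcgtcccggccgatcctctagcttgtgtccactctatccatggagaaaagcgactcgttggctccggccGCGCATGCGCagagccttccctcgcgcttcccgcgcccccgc
*Ndufa6*, not called, chr15:82354292-82354411, minus strand: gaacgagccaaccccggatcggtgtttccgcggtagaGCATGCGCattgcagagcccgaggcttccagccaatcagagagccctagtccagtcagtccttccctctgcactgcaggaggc
A match describes these letters only. *Atp5k*, *Ndufa11* and *Sdhb* had log2 fold changes of -0.60, -0.54 and -0.47, and *Atp5g2* and *Ndufa6*, with the same letters, were at 0.02 and -0.06.

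Complex I, the NADH dehydrogenase, had the most nuclear members and with them the most calls. Of its 38 nuclear genes, 27 were lower, 2 higher and 9 not called, with a median log2 fold change of -0.35. By name these include *Ndufa4*, lower and among the accessory genes below, and *Ndufa4l2*, higher. With both counted in complex IV instead, complex I had 26 of 36 nuclear genes lower and 1 higher. Complex IV then had 10 of 18 lower and 2 higher. Of the 7 core genes, which carry the flavin and iron-sulfur centers, 4 were lower, with a median of -0.29. Of the 30 accessory genes, which surround the core, 23 were lower and 1 higher, with a median of -0.37. The difference between the medians of these groups was not tested.

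*Ndufa5*, an accessory subunit, was at 811, 773 and 917 normalized counts in wild-type and at 584, 486 and 548 in *Rdh10* KO. Every *Rdh10* KO library was below every wild-type library, with a log2 fold change of -0.63 (SE 0.10, limma adjusted p = 6.77e-04). *Ndufs5*, another accessory subunit, had the lowest fold change of complex I at -0.67 (SE 0.20, limma adjusted p = 0.0336), but its libraries were uneven: 168, 186 and 183 in wild-type and 163, 89.6 and 97.7 in *Rdh10* KO. *Rdh10* KO replicate 1 was close to the wild-type values, and the call was lost when any library but that one was left out, with adjusted p up to 0.139 and log2 fold changes of -0.71 to -0.50. Without *Rdh10* KO replicate 1 the log2 fold change was -0.93.

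*Ndufa12*, an accessory subunit, fell from 1632, 1794 and 1516 to 1038, 1019 and 1153 normalized counts, and the groups did not overlap (log2 fold change -0.62, limma adjusted p = 2.42e-04). *Ndufs1*, the largest core subunit, was at 2908, 3036 and 3120 in wild-type and at 2501, 2626 and 2284 in *Rdh10* KO, a log2 fold change of -0.29 (SE 0.07, limma adjusted p = 0.0114). *Ndufv1*, which binds NADH and the flavin, was lower by the same amount on this scale, -0.29 (limma adjusted p = 0.00956). Leaving out 1 library could end both of these calls: wild-type replicate 2 or 3 for *Ndufs1* (adjusted p up to 0.0668) and wild-type replicate 1 for *Ndufv1* (0.0742).

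Some complex I genes were close to their wild-type level. *Ndufa7*, an accessory subunit, was at 1653, 1698 and 1647 in wild-type and at 1624, 1700 and 1658 in *Rdh10* KO, and the groups overlapped fully (log2 fold change -0.005). *Ndufs3*, a core subunit, had a log2 fold change of -0.15 and was not called (limma adjusted p = 0.260).

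Against this trend, *Ndufv3*, a small accessory subunit of the NADH-binding arm, was higher. Its values were 877, 1013 and 798 in wild-type and 1157, 1404 and 1537 in *Rdh10* KO. All *Rdh10* KO libraries were above all wild-type libraries, with a log2 fold change of 0.61 (SE 0.11, limma adjusted p = 0.00181). Per kilobase of transcript, *Ndufv3* stood at 34.8% ± 5.19 (SD, n = 3) of its neighbour *Ndufv1* in wild-type and at 65.1% ± 11.1 in *Rdh10* KO, with an exact two-sided permutation p of 0.1, the smallest that 3 libraries against 3 can give.

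**Figure D2:**
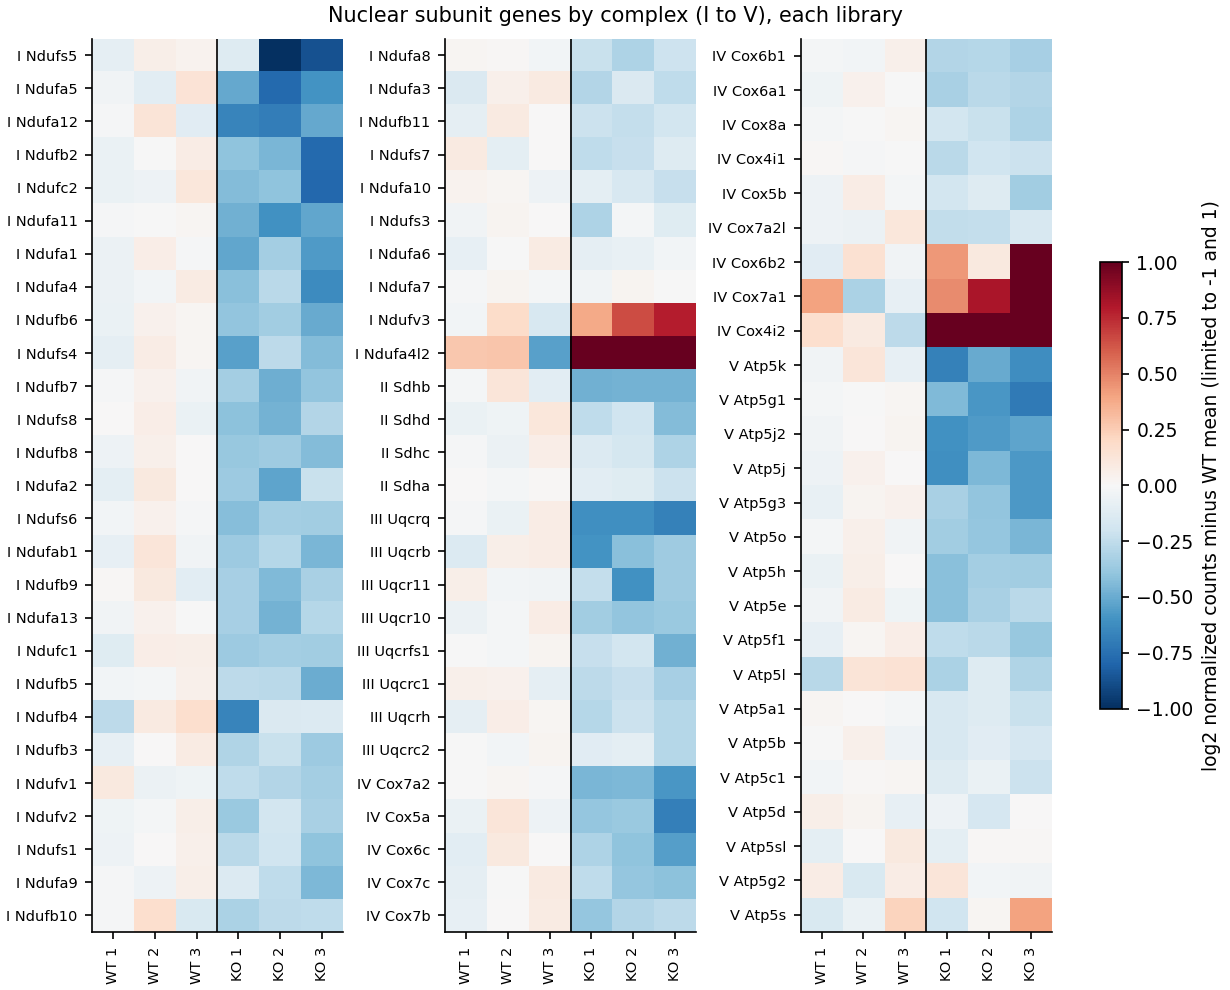
Log2 normalized counts minus the wild-type mean of nuclear subunit genes with a mean above 10, in rows grouped by complex (I to V) and ordered by fold change within a complex, with the 6 libraries in columns. Blue is below and red above the wild-type mean, with the color limited at -1 and 1. Most rows are blue in all 3 *Rdh10* KO libraries, while *Ndufv3*, *Ndufa4l2*, *Cox6b2*, *Cox7a1* and *Cox4i2* are red.

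Complex II, succinate dehydrogenase, is the one complex with no mtDNA-encoded subunit. All 4 of its genes were lower in every *Rdh10* KO library than in any wild-type library, and 2 were called. *Sdhb*, the iron-sulfur subunit, was at 2828, 3126 and 2674 in wild-type and at 2061, 2063 and 2071 in *Rdh10* KO (log2 fold change -0.47, SE 0.07, limma adjusted p = 5.42e-04). *Sdhd*, a membrane anchor, was at -0.30 (limma adjusted p = 0.0167), a call lost without wild-type replicate 2 or 3 or *Rdh10* KO replicate 3 (adjusted p up to 0.0940). *Sdha*, the flavoprotein that oxidizes succinate, was at 6251, 6166 and 6306 and at 5802, 5743 and 5390, a log2 fold change of -0.15 that was not called (limma adjusted p = 0.127), nor was *Sdhc*, the other anchor, at -0.21 (0.0550).

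Complex III, the cytochrome bc1 complex, had 7 of 8 nuclear genes called lower, with a median of -0.33. *Uqcrq*, which encodes a small subunit, had the lowest log2 fold change, -0.63 (SE 0.07, limma adjusted p = 6.14e-05), and kept its call under all 21 alternatives. It was at 2193, 2107 and 2322 in wild-type and at 1441, 1443 and 1382 in *Rdh10* KO, with no overlap. *Uqcrb*, another small subunit, was at -0.46 and the Rieske iron-sulfur protein gene *Uqcrfs1* at -0.30 (limma adjusted p = 0.00246 and 0.0180). The least changed called genes were *Uqcrc1*, a core protein, at -0.28 and *Uqcrh*, the hinge protein, at -0.26. *Uqcrc2*, the second core protein, was at 5630, 5548 and 5754 in wild-type and at 5223, 5283 and 4620 in *Rdh10* KO and was not called (log2 fold change -0.17, limma adjusted p = 0.116). The call of *Uqcrfs1* was lost when any 1 wild-type library was left out (adjusted p up to 0.0764), that of *Uqcrc1* without wild-type replicate 1 or 2 (up to 0.0736) and that of *Uqcrh* without wild-type replicate 2 or 3 (up to 0.109).

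Complex IV, cytochrome c oxidase, has constitutive subunits and tissue isoforms, which are given apart. Of the 11 constitutive nuclear genes, 9 were lower and 2 not called, with a median of -0.30. Of the 5 tissue isoform genes, 1 was higher and 4 were not called. *Cox7a2*, the widely used form of subunit 7a, was lowest, at 3258, 3313 and 3237 in wild-type and 2377, 2400 and 2183 in *Rdh10* KO (log2 fold change -0.50, SE 0.07, limma adjusted p = 2.26e-04). *Cox5a* was at 3358, 3827 and 3400 and at 2699, 2724 and 2188, lower in every *Rdh10* KO library (-0.48, SE 0.09, limma adjusted p = 0.00199), though 32.0% of its 50-base windows occur in other annotated transcripts. *Cox4i1*, *Cox6a1*, *Cox6b1*, *Cox7b* and *Cox8a* had log2 fold changes of -0.31 to -0.23. Of these calls, *Cox8a* was lost without any 1 wild-type library (adjusted p up to 0.0868), *Cox4i1* without wild-type replicate 1 or 2 (up to 0.0730) and *Cox6a1* without wild-type replicate 2 (0.0540). *Cox5b* at -0.22 and *Cox7a2l*, which is known for a role in joining complexes III and IV, at -0.21 were not called (limma adjusted p = 0.0624 and 0.0648), though neither group overlapped.

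The isoforms that were higher are known from other settings. *Cox4i2* replaces *Cox4i1* in lung and at low oxygen, and *Ndufa4l2* is a low-oxygen-induced relative of *Ndufa4*, whose product was first placed in complex I and is now known in complex IV. *Ndufa4l2* (ENSMUSG00000040280.9, chr10:127514967-127517154 of GRCm38) was at 13.3, 13.4 and 7.52 normalized counts in wild-type and at 157, 292 and 274 in *Rdh10* KO. The groups were far apart (log2 fold change 4.39, SE 0.31, limma adjusted p = 1.35e-06), and the call held under all 21 alternatives. *Ndufa4* moved the other way, from 4510, 4603 and 4961 to 3508, 3879 and 3026 (-0.44, SE 0.09, limma adjusted p = 0.00258). *Ndufa4l2* stayed the minor form: per kilobase of transcript it was at 0.160% ± 0.0532 (SD, n = 3) of *Ndufa4* in wild-type and at 4.59% ± 1.53 in *Rdh10* KO (exact two-sided permutation p = 0.1).

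*Cox4i2* (ENSMUSG00000009876.13, chr2:152754173-152765037) was at 48.1, 45.6 and 35.7 in wild-type and at 117, 157 and 198 in *Rdh10* KO, with no overlap (log2 fold change 1.84, SE 0.23, limma adjusted p = 1.09e-04). *Cox4i1* fell from 7937, 7841 and 7875 to 6545, 6852 and 6778. The ratio of *Cox4i2* to *Cox4i1* per kilobase was 0.571% ± 0.0854 (SD, n = 3) in wild-type and 2.43% ± 0.587 in *Rdh10* KO (exact two-sided permutation p = 0.1), so *Cox4i1* remained the main form in both groups. The call of *Cox4i2* also held under all 21 alternatives.

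The remaining tissue isoforms were low or variable. *Cox6b2*, a form known from testis, was at 197, 238 and 209 in wild-type and at 290, 229 and 439 in *Rdh10* KO, so the groups overlapped in replicate 2 of *Rdh10* KO, and it was not called (log2 fold change 0.52, SE 0.19, limma adjusted p = 0.0692; adjusted p from 0.0134 to 0.290 over the alternatives). *Cox7a1*, a heart and muscle form, was at 18.4, 11.1 and 13.2 and at 19.3, 24.5 and 43.5 (0.97, SE 0.42, limma adjusted p = 0.128). *Cox6a2*, also a heart and muscle form, had no reads in wild-type and 7.16, 0 and 15.3 normalized counts in *Rdh10* KO. Against the limit that 3 reads in each library allow, its *Rdh10* KO mean was at least 2.43-fold higher, but it was not called and replicate 2 had none. *Cox7b2* was within 5 reads of 0 in every library.

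Some markers of other cells moved beside these isoforms. Over all genes tested 9.12% were called lower and 10.3% higher, and 1 call in a short list is not apart from these shares. Of 8 pericyte and vascular smooth muscle markers, a cell type in which *Cox4i2* and *Ndufa4l2* are known to be used, 3 were higher (*Acta2*, *Abcc9* and *Tagln*, with log2 fold changes of 2.24, 1.33 and 1.30) and 5 were not called. The summed level was 1896 to 2134 in wild-type and 3065, 3440 and 4826 in *Rdh10* KO, and *Acta2* and *Tagln*, which are smooth muscle genes, made up most of its difference. Of the uncalled pericyte markers, *Cspg4* was at 12.3, 23.4 and 22.6 in wild-type and at 10.7, 7.47 and 11.8 in *Rdh10* KO, where all libraries lay lower (log2 fold change -0.92), and *Rgs5* was at 31.7, 23.4 and 24.5 and at 14.3, 9.60 and 23.5 (-0.82). *Kcnj8* was at 1.11 to 9.21 normalized counts over all libraries. *Pdgfrb*, at 1162, 1119 and 996 in wild-type and at 1317, 1148 and 1352 in *Rdh10* KO, had a positive log2 fold change of 0.22. That of *Des*, at 141, 161 and 125 and at 156, 131 and 213, was 0.20. For both, the groups overlapped. Of 8 endothelial markers 4 were higher, with sums of 3590 to 4096 and 4835 to 5234. Of 14 heart and muscle markers 12 were tested and 1, *Actc1*, was higher, with sums of 157 to 195 and 215 to 373, and 4 were at most 3 reads in every library. *Actc1* alone, at 52.2, 66.8 and 35.7 in wild-type and at 87.4, 121 and 248 in *Rdh10* KO, carried nearly all of that difference, and *Myl7* was at 28.7, 15.6 and 21.6 and at 6.44, 9.60 and 11.8, with all *Rdh10* KO libraries below (not called, log2 fold change -1.23). The sums of pericyte and of muscle markers were highest in *Rdh10* KO replicate 3, as were *Cox4i2*, *Cox6b2* and *Cox7a1*, while *Ndufa4l2* was highest in replicate 2. Their part in the isoform values was not tested.

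**Figure D3:**
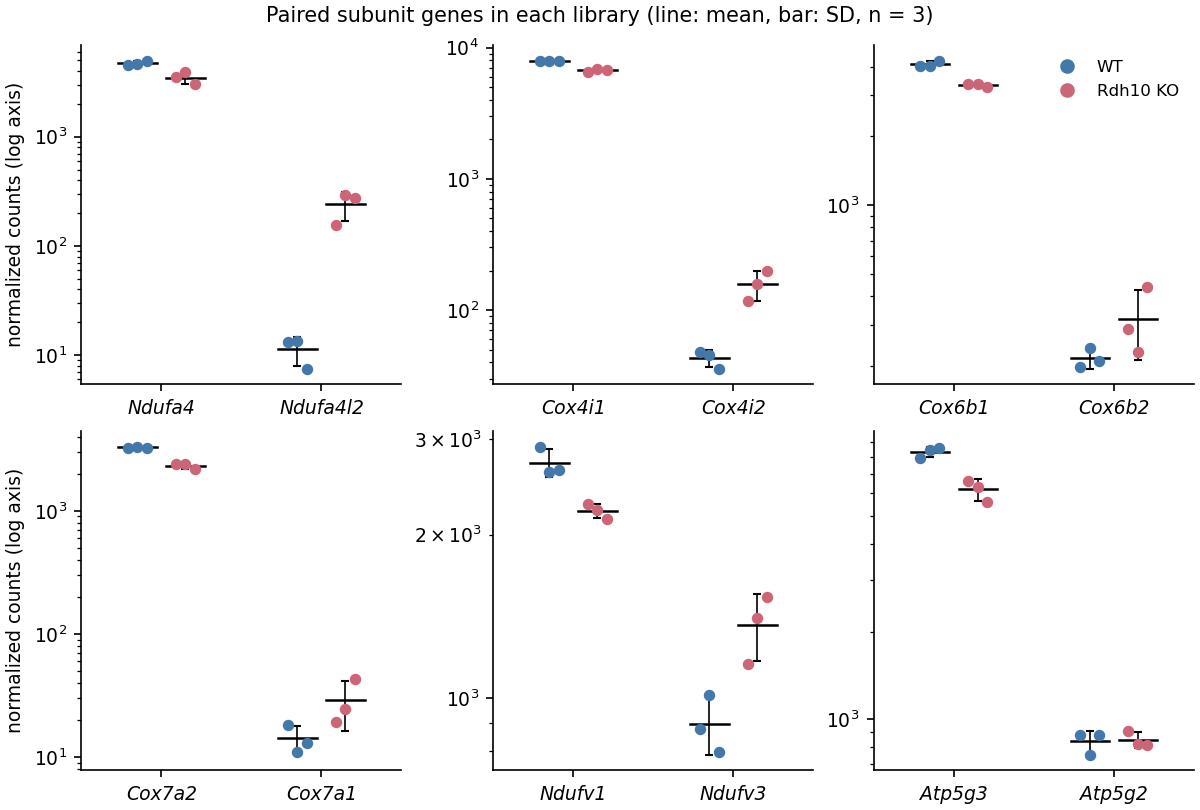
Normalized counts (log axis) of 6 pairs of subunit genes in each library, with wild-type in blue and *Rdh10* KO in red, the line at the mean and the bar at the SD (n = 3). The second gene of a pair is the minor isoform, except that *Ndufv1* and *Ndufv3* are different subunits. *Ndufa4l2* rises from about 11.4 to 241 normalized counts on average, while its partner *Ndufa4* is at 3026 or more in all libraries.

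Complex V, the ATP synthase, has a catalytic head, stalks and a membrane part. Of 10 genes for the membrane part and stalks, 8 were lower, with a median of -0.41. Of 5 genes for the catalytic F1 head, 1 was lower, with a median of -0.15. *Atp5s* and *Atp5sl*, which the naming rule includes but which are not structural subunits, were not called. The difference between the parts was not tested.

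*Atp5k*, which encodes the small e subunit of the membrane part, was at 2070, 2310 and 2008 in wild-type and at 1334, 1496 and 1385 in *Rdh10* KO, lower in all libraries (log2 fold change -0.60, SE 0.08, limma adjusted p = 1.88e-04). *Atp5j2*, which encodes the f subunit, had the smallest adjusted p among the members called lower, 5.22e-05 in limma, with a log2 fold change of -0.57 and values of 4928, 5070 and 5154 against 3320, 3402 and 3494. *Atp5e*, the epsilon subunit, was the 1 F1 gene called, at -0.34 (limma adjusted p = 0.00454).

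The F1 catalytic genes were among the most abundant nuclear members per length, and their values were lower by small amounts. *Atp5b*, the catalytic beta subunit, was at 32600, 33830 and 31527 normalized counts in wild-type and at 29241, 30148 and 29059 in *Rdh10* KO, and *Atp5a1*, the alpha subunit, at 25021, 24752 and 24340 and at 22106, 22610 and 21170. Neither pair of groups overlapped, yet neither was called (log2 fold changes -0.15 and -0.17, limma adjusted p = 0.124 and 0.0684), and the fits with median scaling or with the correction for GC content and exon length called both. Per kilobase of transcript *Atp5b* was at 17042 normalized counts in wild-type, the highest of all nuclear members, above *Atp5g3* at 11489 and *Cox4i1* at 10306.

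The c subunit, the rotor ring of the membrane part, is encoded by 3 genes that give the same mature protein. *Atp5g3*, the main form, fell from 7905, 8451 and 8564 to 6621, 6314 and 5590 (log2 fold change -0.43, limma adjusted p = 0.00109), and *Atp5g1* from 1861, 1885 and 1911 to 1392, 1257 and 1153 (-0.58, limma adjusted p = 2.70e-04). *Atp5g2* was at 881, 753 and 882 and at 910, 822 and 814, so the groups overlapped (0.02, limma adjusted p = 0.923). The ratio of *Atp5g2* to *Atp5g3* per kilobase was 11.0%, 8.82% and 10.2% in wild-type and 13.6%, 12.9% and 14.4% in *Rdh10* KO (exact two-sided permutation p = 0.1). For *Atp5g2*, 87.4% of the 50-base windows of its transcripts are also found in transcripts of other annotated genes, so its value is uncertain.

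The mtDNA-encoded members divided into 7 genes with counts and 6 near 0. Of the 7, *mt-Nd1*, *mt-Nd2*, *mt-Nd4*, *mt-Nd5* and *mt-Cytb* were called lower, *mt-Co1* was not called, and *mt-Nd6* was called higher, with a median log2 fold change of -0.55. *mt-Nd6* is the only protein gene on the minus strand of mtDNA, and the other 6 lie on the plus strand. In all 6 plus-strand genes the groups did not overlap.

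*mt-Nd1*, a core membrane subunit of complex I, was at 59556, 64377 and 71656 normalized counts in wild-type and at 49612, 48091 and 29966 in *Rdh10* KO (log2 fold change -0.65, SE 0.15, limma adjusted p = 0.00679). *mt-Cytb*, the cytochrome b of complex III, was at 59883, 62897 and 70780 and at 47514, 49198 and 31416 (-0.62, SE 0.13, limma adjusted p = 0.00488). *mt-Co1*, the catalytic subunit of complex IV, was at 84665, 84261 and 102189 and at 77423, 83905 and 51010 (-0.38, SE 0.14, limma adjusted p = 0.0838). *Rdh10* KO replicate 3 was the lowest library for all 6 genes. Without it the log2 fold changes were -0.41 for *mt-Nd1*, -0.41 for *mt-Cytb*, -0.36 for *mt-Nd4*, -0.36 for *mt-Nd5*, -0.24 for *mt-Nd2* and -0.16 for *mt-Co1*, and the median of the mitochondrial members was -0.36. Leaving out wild-type libraries also ended calls: any 1 of them for *mt-Nd2* (adjusted p up to 0.108), replicate 2 or 3 for *mt-Nd4* (up to 0.0685) and replicate 3 for *mt-Nd1* (0.0503) and *mt-Nd5* (0.0536). In all, the *mt-Nd2* call was lost in 8 of 21 alternatives, among them DESeq2 (adjusted p = 0.0941), quantile normalization (0.0771), the pseudocount of 0.01 (0.0559) and the replicate block (0.0588), and that of *mt-Nd4* in 4, among them DESeq2 (0.0509). *mt-Co1* was called lower in 8 of 21 alternatives, among them both edgeR tests and the correction for GC content and exon length (0.00998), with adjusted p from 0.00862 to 0.363 over all of them.

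*mt-Nd6*, a membrane subunit of complex I, was at 393, 337 and 534 in wild-type and at 936, 748 and 481 in *Rdh10* KO, so *Rdh10* KO replicate 3 lay within the wild-type range. The log2 fold change was 0.75 (SE 0.20, limma adjusted p = 0.0185), and the call was lost in 9 of 21 alternatives, among them DESeq2 (adjusted p = 0.0594), the correction for GC content and exon length (0.152), the replicate block (0.0646) and the fits without *Rdh10* KO replicate 1 (0.108) or 2 (0.0921) or without wild-type replicate 1 (0.0856) or 2 (0.128). Relative to *mt-Nd5*, its neighbour on the other strand, its level per kilobase was 4.82% ± 0.909 (SD, n = 3) in wild-type and 11.9% ± 2.92 in *Rdh10* KO (exact two-sided permutation p = 0.1). *mt-Nd6* lies at 13552 to 14070 and overlaps the end of *mt-Nd5* at 11742 to 13565, and without a statement on strand in the counting its reads and those of the opposite strand cannot be told apart.

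The ribosomal RNA genes of mtDNA were not called: *mt-Rnr1* was at 9752, 10633 and 10550 in wild-type and at 13006, 12684 and 8524 in *Rdh10* KO, and *mt-Rnr2* at 28971, 30399 and 30038 and at 33154, 30370 and 19890. *Rdh10* KO replicate 3 was lowest for both. Of 5 plus-strand tRNA genes with at least 30 reads in all, *mt-Tl1* and *mt-Tw* were lower, and of 3 on the minus strand 2 had positive fold changes that were not called.

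**Figure D4:**
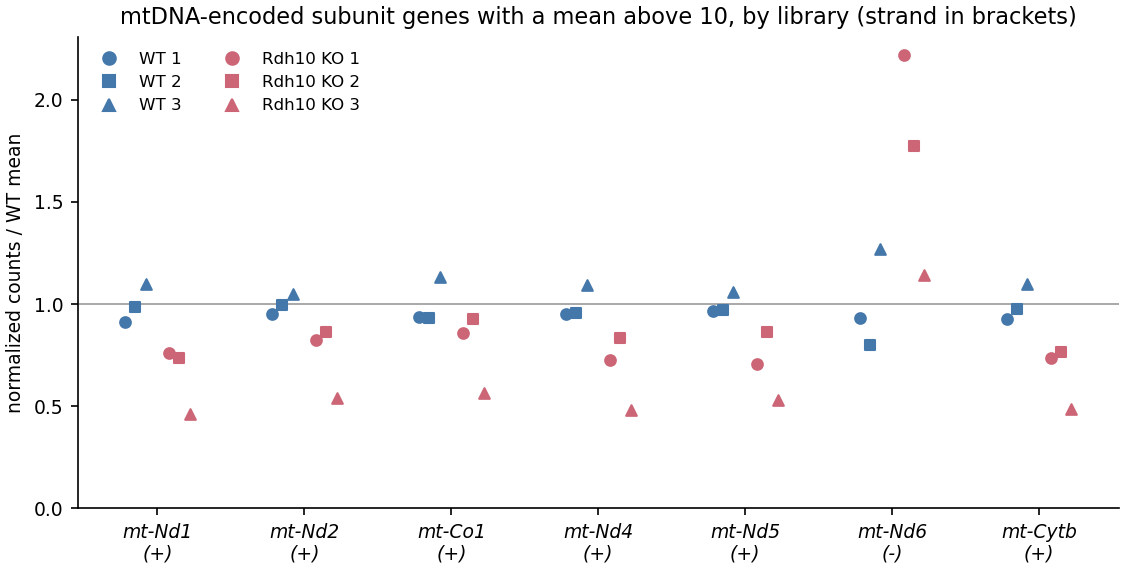
Normalized counts relative to the wild-type mean (y axis, starting at 0) of the 7 mtDNA-encoded subunit genes with a mean above 10 (x axis, in order along mtDNA, strand in brackets), with 1 point per library. All 3 *Rdh10* KO points lie below all wild-type points for the 6 plus-strand genes, replicate 3 (triangle) lowest, while 2 of the 3 lie above them for *mt-Nd6*.

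*mt-Co2*, *mt-Co3*, *mt-Atp6*, *mt-Atp8*, *mt-Nd3* and *mt-Nd4l* had at most 6 reads in any library, although they lie between *mt-Co1* and *mt-Nd4*, which had at least 8186 reads in each library. For 5 of these 6 genes nearly all 50-base windows of the transcript also occur in a transcript of another annotated gene: 100% for *mt-Co2*, 99.9% for *mt-Co3*, 99.5% for *mt-Atp6*, 98.8% for *mt-Nd4l* and 98.0% for *mt-Nd3*. For *mt-Atp8* the share was 0%. For the counted genes it was 62.2% for *mt-Nd4*, 51.1% for *mt-Co1* and at most 8.19% for the others. Their level in the tissue cannot be read from these counts, and no fold change is given for them.

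The same measure was high for some nuclear members. It was 84.8% for *Atp5l*, 53.0% for *Cox7c*, 50.3% for *Atp5o*, 47.9% for *Atp5h*, 43.4% for *Uqcrb*, 39.7% for *Ndufs3*, 38.7% for *Atp5f1*, 37.0% for *Ndufb4*, 34.1% for *Ndufb6*, 32.0% for *Cox5a* and 31.1% for *Ndufs5*, so their values are uncertain. Divided at 5%, a limit set after the values were seen, the 47 nuclear members with fewer shared windows had 27 called lower and 3 higher, with a median log2 fold change of -0.28, and the 36 with more had 27 lower and 9 not called, with a median of -0.36. Spearman's rho across the 81 nuclear members with a mean above 10, which share the 6 libraries, was 0.20 between fold change and transcript length, 0.25 with GC content and -0.23 with the wild-type level per kilobase, all given as a description.

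**Figure D5:**
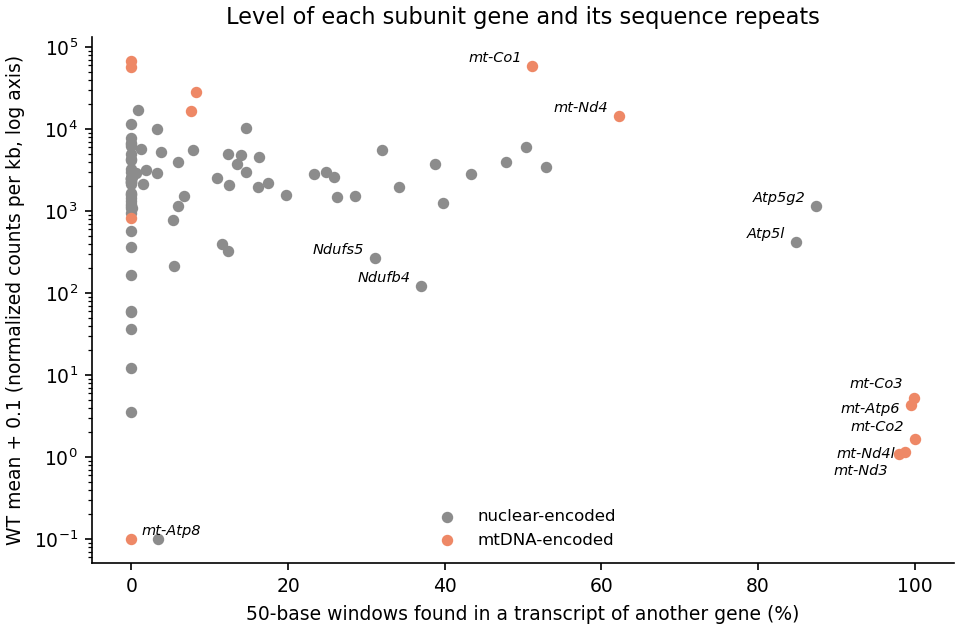
Wild-type mean plus 0.1 in normalized counts per kilobase of transcript (log axis) against the percent of 50-base windows also found in transcripts of other genes, for each of the 96 subunit genes. Nuclear genes are gray and mtDNA-encoded genes orange. The 5 orange points near 0 in level with 98.0% or more shared windows are separated from *mt-Co1* and *mt-Nd4*, and *mt-Atp8* has 0% shared windows and 0 counts in wild-type.

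The genes that work next to the subunits were taken from lists. Over all genes tested, the fit used for these lists, 9.12% were called lower and 10.3% higher. Fitted among genes with a mean above 10, it was 15.6% and 16.6%. In lists this short, a few calls do not set a list apart from these shares. Of 15 electron carriers and subunits that the naming rule leaves out, 7 were lower and 1 higher, with a median log2 fold change of -0.20. *Cycs*, the cytochrome c that carries electrons from complex III to IV, was at 1309, 1462 and 1417 in wild-type and at 985, 907 and 727 in *Rdh10* KO, lower in every library (-0.69, SE 0.10, limma adjusted p = 4.88e-04). *Cyc1*, the cytochrome c1 of complex III, was at 4440, 4334 and 3989 and at 3188, 2968 and 2925 (-0.49, limma adjusted p = 3.06e-04). *Etfa* and *Etfb*, the electron transfer flavoprotein that takes electrons from fatty acid oxidation, were at -0.55 and -0.33, and *Usmg5*, a small ATP synthase subunit, was at -0.52. *Higd1a*, a low-oxygen-induced inner membrane protein, was the 1 gene that was higher, at 0.37 (limma adjusted p = 0.0211).

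Assembly factors, which build the complexes without being part of them, were also measured. Of 14 for complex I, 4 were lower (*Tmem126b*, *Ndufaf4*, *Ndufaf2* and *Acad9*, at -0.55 to -0.24), with a median of -0.21. Of 10 for complexes II and III, 5 were lower, among them *Sdhaf1* at -0.46, with a median of -0.25. Of 23 for complex IV, 7 were lower, such as *Coa6* at -0.62 and *Slirp*, which stabilizes mitochondrial mRNAs, at -0.59, and *Coa4* was higher at 0.54, with a median of -0.17. Of the 4 for ATP synthase, 0 were called in limma (2 at an unadjusted p under 0.05), 1 was called by each of edgeR and DESeq2, and the median was 0.07.

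Of 15 genes for the upkeep and transcription of mtDNA, 4 were lower and 1 higher, with a median of -0.22. The lower genes included *Polrmt*, the mitochondrial RNA polymerase, at -0.30, and its partner *Tfb2m*, at 223, 199 and 227 in wild-type and 163, 138 and 133 in *Rdh10* KO (-0.58, SE 0.14, limma adjusted p = 0.00993). *Tfam*, which packages mtDNA and starts its transcription, was at 2344, 2427 and 2616 and at 2170, 2202 and 1972 and was not called (-0.22, limma adjusted p = 0.0527).

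Of 13 nuclear regulators of respiratory genes, 3 were lower and 3 higher, with a median of 0.01, so the list did not shift as a whole. *Nrf1* was at 1915, 1801 and 1878 in wild-type and at 1581, 1577 and 1533 in *Rdh10* KO (log2 fold change -0.25, limma adjusted p = 0.0189). *Chchd2* and *Hif1a* were lower at -0.37 and -0.23, and *Ppargc1b*, a coactivator of mitochondrial biogenesis, was higher at 1.28 (SE 0.26, limma adjusted p = 0.00365), from a low level of 41.9, 43.4 and 27.3 to 78.1, 78.9 and 116. *Epas1*, the low-oxygen factor of endothelium, and *Rbpj* were higher at 0.62 and 0.44. *Gabpa* and *Yy1* were at 0.01 and 0.03 and were not called.

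Of 19 genes of the citric acid cycle and pyruvate entry, 8 were lower and 2 higher, with a median of -0.19. *Pdhb*, a subunit of pyruvate dehydrogenase, was at -0.45 and *Mdh2*, malate dehydrogenase, at -0.33 (limma adjusted p = 7.02e-04 and 0.00308). *Pdha1*, the other subunit of the same pyruvate dehydrogenase component, was higher at 0.26, with 5186, 5576 and 5597 in wild-type and 6308, 7185 and 6158 in *Rdh10* KO (limma adjusted p = 0.0205), and *Suclg2*, the GTP-forming succinyl-CoA ligase subunit, was higher at 0.28 while its ATP-forming counterpart *Sucla2* was lower at -0.33.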

How the data were processed

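RNA was sequenced from 3 wild-type and 3 *Rdh10* KO pools of E10 tissue, each of 3 embryos. Per the paper's methods, the authors made directional poly(A)-selected libraries, aligned reads to mm10 with TopHat, estimated abundance by Expectation-Maximization and normalized to FPKM. The deposited signal is not divided by gene length: in each library, 100% of the values were whole reads (tolerance 0.01) divided by 1 size factor, so it is called normalized counts here. The sources used here do not state whether reads were counted by strand. The libraries held between 16392777 and 27101025 reads on genes. Up to 3 reads in each library of a group was taken as the limit of detection, and this floor covers counting error only.

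Genes with a mean above 0.5 (22921 of 26437) were compared between *Rdh10* KO and wild-type on the scale log2(value + 0.1), using limma-trend (limma 3.58.1, R 4.3.3). Benjamini-Hochberg adjustment covered all genes tested, and a gene was called lower or higher at an adjusted p under 0.05 with no fold limit. Fold changes on this scale understate those of low genes. Medians over genes used those with a mean above 10. Members followed a rule on gene names. The members and the lists were chosen with earlier results of these data known. The genes named were all members of isoform families, all protein-coding mitochondrial genes, the called members with the 2 lowest and 2 highest fold changes in each complex, 1 or 2 catalytic or core genes per complex, and members past 0.85. Other genes named were chosen after their values were seen. Alternatives included edgeR 4.0.16 and DESeq2 1.42.0 on the recovered reads, a correction for GC content and exon length, and other scalings, pseudocounts and filters. The tests were tried on simulated data. Positions, lengths and transcript sequences came from GENCODE mouse release 21, which holds 26288 of the 26437 genes. Values per kilobase were divided by the length of 1 principal transcript per gene, the longest of the best rank. They therefore depend on the transcript taken. Exact tests used scipy 1.17.1, and plots were drawn with matplotlib 3.10.9 in Python 3.11.15. Values of some genes are not reported here.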

Additional observations from a re-analysis of the deposited data

How the results depend on the processing

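The direction of the median fold change was negative for the nuclear members, the mitochondrial members and each of the 5 complexes under every alternative run. Median scaling lowered the medians of the nuclear members, to -0.43 for complex I, -0.34 for complex II, -0.42 for complex III, -0.35 for complex IV, -0.39 for complex V and -0.39 for all nuclear members, and it moved the median of all genes to -0.08. The complex V median was -0.34 with the correction for GC content and exon length, with or without the replicate block, and -0.34 with quantile normalization. Leaving out each library in turn gave medians of -0.29 to -0.24 for complex IV, -0.36 to -0.26 for complex V and -0.34 to -0.28 for all nuclear members.

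Counts of called members depended more on the setting. Without the intensity trend, limma called 5 members lower and 2 higher, where 0.859% and 1.95% of all genes tested were called. At an unadjusted p it was 59 and 4 members, and the cause was not tested. With the 0.85 limit 0 were lower and 2 higher, against 203 and 552 of all 22921 genes tested. At an unadjusted p in the usual fit 73 were lower and 7 higher. Shares of all genes at an unadjusted p were not counted, so these unadjusted counts have no background beside them. Leaving out 1 library in turn called 39 to 59 members lower and 3 to 5 higher. Over all genes tested, these fits called 4.36% to 9.11% lower and 6.55% to 9.42% higher. The count of 39 was without wild-type replicate 2, where fewer samples were fitted. The correction for GC content and exon length called 66 lower and 4 higher, and over all genes it turned 2091 lower and 2360 higher calls into 3081 and 1873. Median scaling gave 3033 and 1709. *Atp5g2*, not called in any setting, changed sign to -0.066 with median scaling, and ranged from -0.056 to 0.058 when 1 library was left out, being lowest without wild-type replicate 2 and also negative, at -0.032, without replicate 1 of *Rdh10* KO. Deviations of same-numbered libraries correlated at -0.03, -0.03 and -0.07 over 15272 genes, so no shared deviation was seen. With 3 libraries per group, this cannot tell whether same-numbered pools were collected or prepared together. The replicate block called 49 members lower and 3 higher, where 6.05% and 7.48% of all genes tested were called.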
